A study of Mus musculus with 4 samples.

Results

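The genes described here are *Dux* and 8 genes reported to act upstream of it, 9 of the 50559 genes in a count table of mouse embryonic stem cells (ESCs). They were chosen by symbol as the rows *Duxf3*, *Dppa2*, *Dppa4*, *Dppa3*, *Nelfa*, *Trp53*, *Pias4*, *Smchd1* and *Nr5a2*, and each of the 9 reached the mean count of 10 over the libraries that was asked of the 18586 genes compared. *Duxf3* is the row that stands for *Dux*, since the table lists no gene named *Dux*. The table held 4 RNA-seq libraries of the E14 line, 1 per group, so the differences are between single libraries, are not checked by replicates and carry no p-value.

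The first group carried a scrambled hairpin with an empty vector (shscr+EV). The others carried a hairpin against *Ythdf2*, which encodes a reader protein of N6-methyladenosine (m6A), a base modification of RNA. Of these, the second group had the empty vector (shYthdf2+EV), the third a wild-type YTHDF2 construct (shYthdf2+WT) and the fourth a YTHDF2 construct mutated in its m6A binding (shYthdf2+Mut, whose title spells the hairpin shYtdhf2). Per the methods of the study, the ESCs carried a tdTomato reporter driven by the MERVL promoter, the hairpins came from lentivirus, and infected cells were selected with puromycin as lines, without a statement that these were single clones. The methods describe culture on gelatin-coated dishes in a medium with serum replacement and LIF, and name no feeder cells. The sources used here do not say which *Ythdf2* hairpin was used in these libraries or from which species the construct came.

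*Dux* encodes a transcription factor with a pair of homeodomains that is expressed for a short time when the genome of the mouse embryo is first switched on. In cultured ESCs it is nearly silent except in rare cells that pass through a 2C-like state, in which it activates genes of the 2-cell embryo such as the *Zscan4* family. *Dux* lies in a tandem repeat, and both activators and repressors of that repeat are known. Among the activators, DPPA2 and DPPA4 bind chromatin as a pair, NELFA is a subunit of the negative elongation factor, and p53, from *Trp53*, is a stress-responsive transcription factor. Among the restraining factors, PIAS4 is a SUMO ligase and SMCHD1 a chromosomal protein that keeps repeats silent. DPPA3 is a maternal factor that limits DNA methylation, and NR5A2 is an orphan nuclear receptor of ESCs and early embryos.

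The upstream sequence of *Dux* is shown first because it holds a form of the letters that DUX itself recognises, and that of *Zscan4c*, a DUX target, is shown for comparison. The windows run from 250 bases before to 50 bases after the start of the gene on its own strand, as RefSeq gives them on GRCm38.p6. The letters searched were GATTNAATC, which reads the same on both strands, and the looser GATTNNATC on both strands, which includes every match of the first. Capitals mark the match.
Duxf3, chr10:58233040-58233339, minus strand: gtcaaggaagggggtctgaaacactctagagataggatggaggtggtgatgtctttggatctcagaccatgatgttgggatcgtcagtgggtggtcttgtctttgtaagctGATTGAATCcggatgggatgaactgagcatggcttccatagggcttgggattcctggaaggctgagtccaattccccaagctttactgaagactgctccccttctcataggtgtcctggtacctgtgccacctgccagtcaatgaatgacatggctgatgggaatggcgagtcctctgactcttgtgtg
Zscan4c, chr7:11005495-11005794, plus strand: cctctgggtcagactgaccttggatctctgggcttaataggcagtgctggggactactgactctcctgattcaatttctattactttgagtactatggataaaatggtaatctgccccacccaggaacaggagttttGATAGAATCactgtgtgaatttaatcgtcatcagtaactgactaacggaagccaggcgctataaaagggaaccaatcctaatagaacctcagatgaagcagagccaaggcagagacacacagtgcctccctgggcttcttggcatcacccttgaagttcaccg
In *Zscan4c* the match lies on the other strand. The match in *Duxf3* began 139 bases before the start, and the match in *Zscan4c* began 113 bases before it. GATTNAATC was found in 88 of 32851 promoters (0.268%) and GATTNNATC in 518 (1.58%). The set of promoters used here held 5 of the 9 genes, 6 windows in all (*Duxf3*, *Nelfa*, *Trp53*, *Smchd1* and *Nr5a2*), and only that of *Duxf3* held either form. Of the 16 promoters of 15 listed DUX target genes, 2 held GATTNAATC (*Gm4340* and *Pramel17*) and 7 held GATTNNATC, among them those of *Zscan4b*, *Zscan4c*, *Zscan4d* and *Zscan4f*, which are near copies of each other. These letters were chosen with the promoters in view. The *Duxf3* start is that of the mm10 gene model, which is shorter than the mm39 model counted here. A match is a description and not a binding site, and no binding was measured here.

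The state of the libraries bears on every value below. Total counts ranged from 31533129 to 35742335 reads, and 3 reads, taken as the floor, correspond to 0.0834 to 0.0949 CPM, counts per 1000000 scaled reads. The targeted gene *Ythdf2* had 2806 reads in shscr+EV and 662 in shYthdf2+EV, 20.7% of the control after scaling. It had 7661 reads in shYthdf2+WT and 6925 in shYthdf2+Mut, where reads of a mouse construct would be counted with those of the endogenous gene. All 12 markers of ESCs were detected in every library, with a summed level of 6458 to 7100 CPM, and the fibroblast feeder genes *Dcn*, *Lum* and *Fap* were at 0 in every library, with 10.9 to 16.5 CPM summed over 8 markers. Trophectoderm markers summed to 82.3 CPM in shscr+EV, 54.4 in shYthdf2+EV, 77.1 in shYthdf2+WT and 59.6 in shYthdf2+Mut, with none of 8 at 0. The sum of 8 primitive endoderm markers was 73.9 to 84.9 CPM, with only *Foxa2* at 0 in shscr+EV. That of 7 primed state markers was 98.3 to 104.6, with *T* at 0 in every library. Most reads of these sums came from *Lama1* (1821 to 2022) and *Dnmt3b* (2462 to 2822). The median log2 ratio of the 7 primitive endoderm markers compared was 0.75 for shYthdf2+EV to shscr+EV and -0.62 for shYthdf2+WT to shYthdf2+EV. It was 0.59 for shYthdf2+Mut to shYthdf2+WT. Over the 5 primed markers compared these medians were 0.29, -0.03 and -0.03, with *Lef1* highest in the first, at 2.05. Reads of 7 Y-linked genes numbered 4 in shscr+EV, 672 in shYthdf2+EV, 105 in shYthdf2+WT and 602 in shYthdf2+Mut. Over 6210 genes averaging 1000 reads or more, the shYthdf2+Mut to shYthdf2+WT ratio correlated with GC content across genes (Spearman's rho -0.51, genes not being independent replicates), as did those of shYthdf2+WT (0.44) and shYthdf2+Mut (-0.27) to shYthdf2+EV, against 0.02 for the shYthdf2+EV to shscr+EV ratio. The part of these differences in the results was not tested.

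*Duxf3* had 10 reads in shscr+EV, 46 in shYthdf2+EV, 16 in shYthdf2+WT and 18 in shYthdf2+Mut. On the CPM scale, with library sizes scaled by the trimmed mean of M values (TMM), these were levels of 0.317, 1.28, 0.486 and 0.566. The library of the knockdown with empty vector was thus the high one, and the other 3 lay close together and near the floor. The log2 ratio of shYthdf2+EV to shscr+EV was 1.97 (95% counting interval 0.59 to 3.77), a level 3.91-fold higher. All intervals here are Clopper-Pearson intervals on read pairs, taken as reads divided by 2, and cover counting error only.

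Both constructs were accompanied by a lower *Duxf3* level than the empty vector. The log2 ratio to shYthdf2+EV was -1.37 (-2.77 to -0.18) for shYthdf2+WT and -1.16 (-2.47 to -0.01) for shYthdf2+Mut, and the shYthdf2+EV library is shared by both and by the knockdown comparison. Between the constructs, shYthdf2+Mut to shYthdf2+WT, it was 0.21 (-1.33 to 1.79), so no difference was detectable at this depth. Against shscr+EV the ratios were 0.60 (-1.17 to 2.58) with the wild-type and 0.81 (-0.89 to 2.76) with the mutant construct. In bulk RNA, more cells that express *Dux* and more RNA per cell cannot be told apart.

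The *Duxf3* row is 1 exon record of 5254 bases at chr10:58064887-58070140 on the minus strand of mm39. Reads that aligned to several places were not counted, so near-identical copies of the repeat can lose reads, and the row can undercount *Dux* RNA by an unknown amount. Its neighbour *Gm4981*, 529 bases away, had 2, 6, 0 and 0 reads in the order of libraries used above, too few for a ratio. *Duxbl1*, a related double homeobox gene on chromosome 14, had 67, 231, 109 and 224 reads. Its log2 ratio of shYthdf2+EV to shscr+EV was 1.59 (1.03 to 2.2), and that of shYthdf2+Mut to shYthdf2+WT was 1.08 (0.61 to 1.58). Against shYthdf2+EV, *Duxbl1* in shYthdf2+Mut was at 0.13 (-0.26 to 0.52), where *Duxf3* had a lower value of -1.16 (-2.47 to -0.01). These intervals overlap, and the *Duxf3* interval between the constructs, -1.33 to 1.79, holds the *Duxbl1* value. A difference between these genes was not tested.

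**Figure D1:**
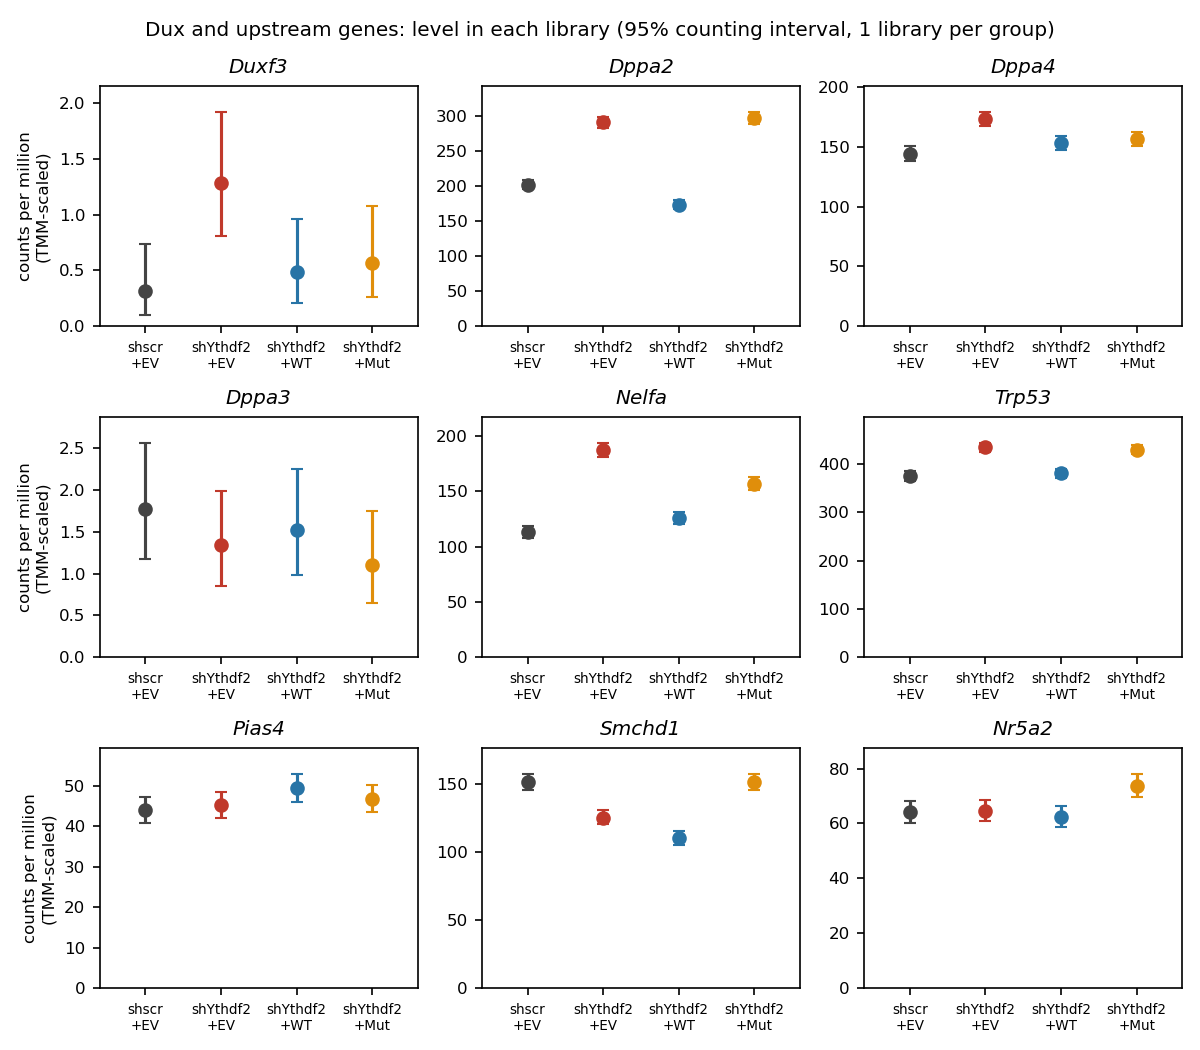
Level of each of the 9 genes in the 4 libraries, in TMM-scaled CPM on the vertical axis from 0, with 95% counting intervals as bars and 1 point per library. *Duxf3* was at 1.28 in shYthdf2+EV against 0.317 to 0.566 elsewhere, and *Dppa2* was high in shYthdf2+EV and shYthdf2+Mut.

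The genes most like *Duxf3* in their pattern were found by Euclidean distance between centred log2 scaled counts over the 4 libraries, among 13995 genes averaging 50 reads or more. They were *1700052K11Rik* (distance 0.27), *Cilp2* (0.33), *Cebpa* (0.35), *Hspa1a* (0.35) and *Tcstv3* (0.38). *Tcstv3*, a gene of the 2C-like state, had 66, 280, 107 and 156 reads, and *Hspa1a*, which encodes a heat-shock chaperone, had 104, 459, 218 and 215. These are distances over 4 points, 3 of which rest on 10 to 18 *Duxf3* reads. Of the other 8 genes described here, *Nelfa* was the nearest to *Duxf3* at 0.90, at rank 383 of the 13995 genes, and *Dppa2* lay at 1.11, while *Dppa3* fell under the count minimum.

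*Dppa2* and *Dppa4* are neighbours on chromosome 16, on the plus strand with 15981 bases between them (mm39 chr16:48130637-48139876 and chr16:48104098-48114655). *Dppa2* had 6405 reads in shscr+EV, 10480 in shYthdf2+EV, 5732 in shYthdf2+WT and 9482 in shYthdf2+Mut, or levels of 202.7, 291.5, 174.1 and 298.1 CPM. The libraries of the hairpin with empty vector and with the mutant construct were both high, and those of the scrambled hairpin and of the wild-type construct both low. The log2 ratio of shYthdf2+EV to shscr+EV was 0.52 (0.46 to 0.59), that of shYthdf2+WT to shYthdf2+EV was -0.74 (-0.81 to -0.68) and that of shYthdf2+Mut to shYthdf2+EV was 0.03 (-0.02 to 0.09). Between the constructs *Dppa2* was 1.71-fold higher with the mutant, a log2 ratio of 0.78 (0.71 to 0.84). After removal of the median ratio of genes of like GC content and exon length (the GC and length correction) it was 0.67. The Y-linked reads given above were also high in these same libraries, and their relation to *Dppa2* was not tested.

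*Dppa4*, the partner of *Dppa2*, had a smaller range. It had 4555, 6221, 5040 and 4973 reads, or 144.1, 173.1, 153.1 and 156.4 CPM, in the order shscr+EV, shYthdf2+EV, shYthdf2+WT and shYthdf2+Mut. The shYthdf2+EV library was the highest. The log2 ratio was 0.26 (0.19 to 0.34) with the knockdown, -0.18 (-0.25 to -0.10) for shYthdf2+WT and -0.15 (-0.22 to -0.07) for shYthdf2+Mut against shYthdf2+EV. The GC and length correction turned the last of these to 0.018. Its ratio between the constructs was 0.03 (-0.05 to 0.11), or 0.27 with that correction.

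*Nelfa* had 3572 reads in shscr+EV, 6733 in shYthdf2+EV, 4136 in shYthdf2+WT and 4987 in shYthdf2+Mut, at mm39 chr5:34055260-34093670. Its levels were 113.0, 187.3, 125.7 and 156.8 CPM, with the wild-type construct near the control and the mutant construct midway. The knockdown ratio was 0.73 (0.65 to 0.81) on the log2 scale, or 1.66-fold, the highest of the 7 genes described here that averaged 1000 reads or more. Only 1.39% of the 6315 genes with such counts had a ratio as high. Against shYthdf2+EV the ratio was -0.58 (-0.66 to -0.50) with the wild-type and -0.26 (-0.33 to -0.18) with the mutant construct, and it was 0.32 (0.23 to 0.40) between them. After the GC and length correction these values were -0.70, -0.22 and 0.45.

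The other subunits of the negative elongation factor, a complex that holds RNA polymerase II near the promoter, had other values. With the knockdown, the log2 ratio was -0.23 (-0.35 to -0.11) for *Nelfb*, 0.08 (-0.03 to 0.19) for *Nelfcd* and 0.17 (0.03 to 0.32) for *Nelfe*. Between the constructs these 3 were all lower with the mutant, at -0.38, -0.38 and -0.17, where *Nelfa* was higher. After the GC and length correction the values were -0.22 for *Nelfb*, -0.15 for *Nelfcd* and 0.31 for *Nelfe*, so that of *Nelfe* turned. *Top2a*, the topoisomerase reported to act with NELFA, had a log2 ratio of -0.22 (-0.25 to -0.19) with the knockdown and 0.35 (0.31 to 0.38) between the constructs, or 0.065 with that correction.

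*Trp53* was the most abundant of the 9 per kilobase of exon. It had 11854, 15605, 12522 and 13670 reads, or 375.1, 434.1, 380.4 and 429.8 CPM, at mm39 chr11:69471174-69482699. Like *Dppa2*, it was low in shscr+EV and shYthdf2+WT and high in the others, over a narrower range. The log2 ratio was 0.21 (0.16 to 0.26) with the knockdown, -0.19 (-0.24 to -0.14) for shYthdf2+WT and -0.01 (-0.06 to 0.03) for shYthdf2+Mut against shYthdf2+EV, and 0.18 (0.13 to 0.23) between the constructs. None of these reached 1.2-fold, but after the GC and length correction shYthdf2+WT against shYthdf2+EV was at -0.31 and the value between the constructs at 0.31, both past 1.2-fold. A processed copy, *Trp53-ps*, had only 27 to 50 reads per library.

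Genes of the p53 circuit had, at the median, higher knockdown ratios than *Trp53* itself. Of 21 listed regulators, targets and relatives of p53, 14 were at least 1.2-fold higher with the knockdown, where 27.5% of all genes compared were, and 1 was at least 1.2-fold lower, where 27.1% were. The median log2 ratio was 0.49 against -0.0015 over all genes compared. Of the 21, all but *Trp63*, *Fas*, *Bbc3* and *Trp73* averaged 1000 reads or more. Among genes of that range 16.7% were at least 1.2-fold higher and 15.2% lower with the knockdown. *Trp63*, a relative of p53, had the highest ratio, 1.18 (-0.03 to 2.59), on 16 and 42 reads, and *Sesn1*, a stress-induced target, had the lowest, -0.35 (-0.49 to -0.21). *Perp*, a membrane protein of the p53 response, had 1257, 2438, 1373 and 2252 reads, which gave a ratio of 0.77 (0.63 to 0.91) with the knockdown and 0.76 (0.63 to 0.90) between the constructs. *Bbc3*, which encodes the pro-apoptotic protein PUMA, had 475, 903, 934 and 589 reads and so was high in shYthdf2+WT, with -0.62 (-0.83 to -0.40) between the constructs, or -0.32 after the GC and length correction. Between the constructs, 10 of the 21 were at least 1.2-fold higher with the mutant, where 27.6% of all genes were, and 4 were lower, where 30.7% were, with a median of 0.21. After the GC and length correction 9 were higher, where 23.7% of 16726 genes were, and 3 were lower, where 25.0% were. The median was then 0.17.

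*Pias4* had 1390, 1624, 1629 and 1487 reads at mm39 chr10:80989795-81003554, or 43.99, 45.2, 49.5 and 46.8 CPM. The log2 ratio was 0.04 (-0.11 to 0.19) with the knockdown, 0.13 (-0.01 to 0.27) for shYthdf2+WT and 0.05 (-0.10 to 0.19) for shYthdf2+Mut against shYthdf2+EV, and these last were -0.037 and 0.31 after the GC and length correction. Between the constructs it was -0.08 (-0.23 to 0.06), but *Pias4* has the highest GC content of the 9 transcripts (60.8%) and the correction moved this value to 0.40. Of 16 genes of the SUMO pathway, 5 were at least 1.2-fold higher (27.5% of all genes) and 1 was lower (27.1%) with the knockdown, with a median of 0.08. Among genes averaging 1000 reads or more, as all of the 16 but *Senp7* did, these shares were 16.7% and 15.2%. The extremes of the list were *Senp7*, a SUMO protease, at 0.47 (0.15 to 0.80), and *Sae1*, a subunit of the SUMO activating enzyme, at -0.27 (-0.32 to -0.21). *Pias2*, a ligase related to *Pias4*, had the highest ratio of the list between the constructs, 0.51 (0.46 to 0.56), or 0.22 with that correction.

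*Smchd1* was low in shYthdf2+WT. It had 4792 reads in shscr+EV, 4516 in shYthdf2+EV, 3632 in shYthdf2+WT and 4823 in shYthdf2+Mut, or 151.6, 125.6, 110.3 and 151.6 CPM, at mm39 chr17:71651484-71782361. The knockdown log2 ratio was -0.27 (-0.36 to -0.19), with the control library high. With shYthdf2+EV as the reference, shYthdf2+WT had a ratio of -0.19 (-0.28 to -0.10) and shYthdf2+Mut one of 0.27 (0.19 to 0.35), and the mutant library was level with shscr+EV. With the GC and length correction these ratios were -0.0070 and 0.16. The ratio between the constructs was 0.46 (0.37 to 0.55), which the correction took to 0.17. *Smchd1* has the lowest GC content of the 9 transcripts (42.2%).

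Of 20 other genes reported to restrain *Dux* or the 2C-like state, 3 were at least 1.2-fold higher (27.5% of all genes) and 0 lower (27.1%) with the knockdown, with a median of 0.05. All 20 averaged 1000 reads or more, and among genes of that range 16.7% were higher and 15.2% lower. *Ythdc1*, a nuclear m6A reader, had the highest ratio, 0.52 (0.45 to 0.60), on 4514, 7382, 4908 and 6760 reads, and *Kdm1a*, a histone demethylase, the lowest, -0.20 (-0.27 to -0.13). Between the constructs 7 were higher (27.6%) and 1 was lower (30.7%) with the mutant, with *Zmym2*, a SUMO-binding repressor, at 0.62 (0.53 to 0.70), and *Ehmt2*, a histone methyltransferase, at -0.51 (-0.60 to -0.42). The GC and length correction took these to 0.28 and -0.23. After it 4 of the 20 were higher, where 23.7% of 16726 genes were, and 0 were lower, where 25.0% were. Without it, 22.7% of genes averaging 1000 reads or more were higher and 17.1% lower. *Rybp*, a Polycomb subunit, had the lowest ratio of the list in shYthdf2+WT against shYthdf2+EV, -0.55 (-0.63 to -0.47).

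*Nr5a2* had 2029, 2324, 2058 and 2346 reads, or 64.2, 64.7, 62.5 and 73.8 CPM, at mm39 chr1:136770300-136888186. Only shYthdf2+Mut stood above the rest. The log2 ratio was 0.01 (-0.11 to 0.13) with the knockdown, -0.05 (-0.17 to 0.07) for shYthdf2+WT and 0.19 (0.07 to 0.31) for shYthdf2+Mut against shYthdf2+EV, the last of which was 0.092 after the GC and length correction, where that of shYthdf2+WT turned to 0.12. The value between the constructs, 0.24 (0.12 to 0.36), was -0.04 with it. Among listed factors that work with it, *Nr0b1*, a corepressor of orphan receptors, had 1352, 2557, 1781 and 2035 reads and a knockdown ratio of 0.73 (0.60 to 0.87), and *Tfap2c*, an AP-2 transcription factor, had -0.43 (-0.56 to -0.30). *Nr5a1* and *Nr0b2* had too few reads to be compared.

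*Dppa3* had 56, 48, 50 and 35 reads, or 1.77, 1.34, 1.52 and 1.10 CPM, at mm39 chr6:122603383-122607230. The shscr+EV library was the highest and shYthdf2+Mut the lowest, but all 6 ratios between libraries had intervals that held 0. With the knockdown it was -0.40 (-1.26 to 0.43), and between the constructs -0.46 (-1.44 to 0.47). No difference was detectable at this depth.

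**Figure D2:**
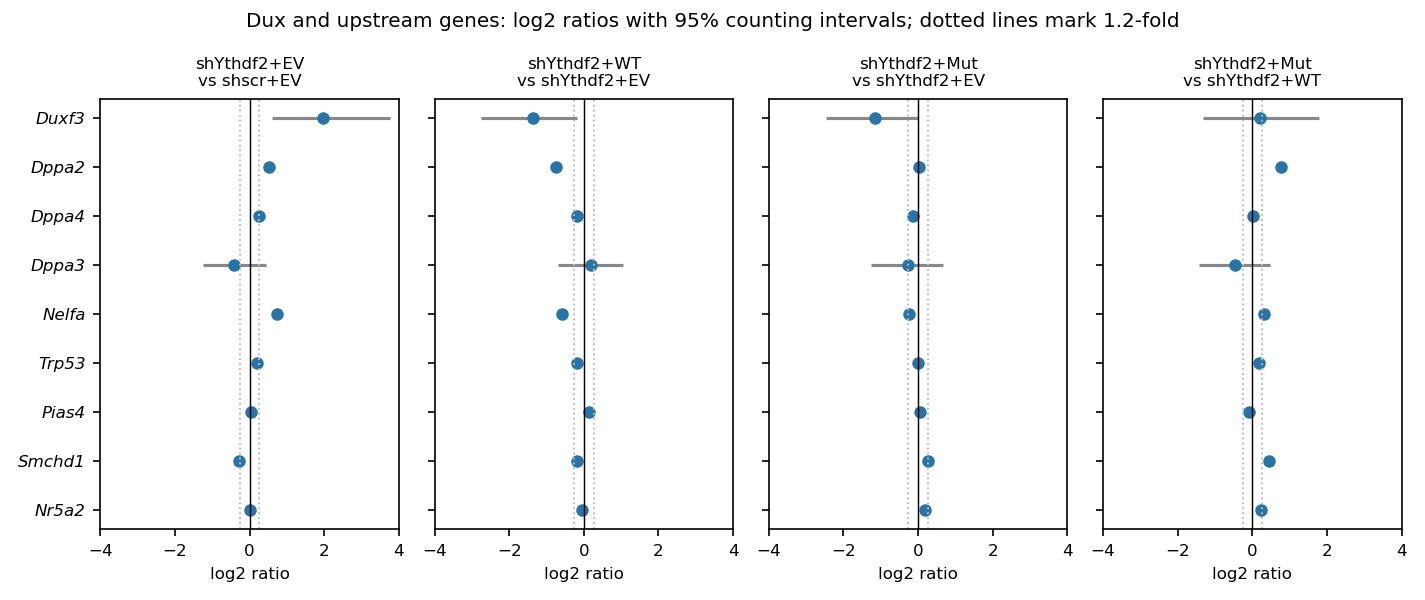
Log2 ratios (horizontal axis) of the 9 genes in 4 comparisons of single libraries, with 95% counting intervals as horizontal lines and dotted lines at 1.2-fold in either direction. Only *Duxf3* and *Dppa3*, with mean counts of 22.5 and 47.3, had wide intervals. The first 3 panels share the shYthdf2+EV library.

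The 9 genes were then counted against the background of all genes compared. With the knockdown, 4 of the 9 were at least 1.2-fold higher (*Duxf3*, *Nelfa*, *Dppa2* and *Dppa4*), where 27.5% of all genes were, and 2 were at least 1.2-fold lower (*Smchd1* and *Dppa3*), where 27.1% were. *Dppa4*, with a log2 ratio of 0.26, lay on the threshold, and 3 of the 9 were higher with upper-quartile factors or the GC and length correction. Because counting error is larger for low counts, the 7 genes averaging 1000 reads or more were also set against genes of that range: 3 of 7 were higher, where 16.7% of 6315 genes were, and 1 of 7 was lower, where 15.2% were. Only *Duxf3* was at least 2-fold higher, as were 7.1% of all genes.

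In shYthdf2+WT against shYthdf2+EV, 3 of the 9 were at least 1.2-fold lower (*Duxf3*, *Dppa2* and *Nelfa*), where 24.8% of all genes were, and 0 were higher, where 25.9% were. Among abundant genes, 2 of 7 were lower against 15.3%, and 0 of 7 higher against 11.2%. Only *Duxf3* was at least 2-fold lower, against 5.61% of all genes. The counting interval lay below 0 for 6 of the 9 and above 0 for none, but no share over all genes was set beside this. Such intervals cover counting error only and are narrow for abundant genes. *Smchd1*, among the 6, was at -0.0070 after the GC and length correction.

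With the mutant construct against shYthdf2+EV, *Smchd1* was at least 1.2-fold higher, where 16.8% of all genes were, and *Duxf3* and *Dppa3* were lower, where 20.6% were. After the GC and length correction *Smchd1* no longer was, and *Pias4* alone was at least 1.2-fold higher, where 15.3% of 16726 genes were. Of the 7 abundant genes, 1 was higher against 4.09% and 0 were lower against 7.38%. *Duxf3* alone was at least 2-fold lower, against 3.39%.

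Between the constructs, *Dppa2*, *Smchd1* and *Nelfa* were at least 1.2-fold higher with the mutant, where 27.6% of all genes were, and *Dppa3* was lower, where 30.7% were. Of the 7 abundant genes 3 were higher, against 22.7%, and 0 were lower, against 17.1%. None of the 9 was at least 2-fold higher, against 5.39% of all genes. The share of 3 in 9 is near the background. After the GC and length correction 6 of the 9 were at least 1.2-fold higher, where 23.7% of 16726 genes were. *Smchd1* was then no longer among them, and *Duxf3*, *Dppa4*, *Trp53* and *Pias4* were added.

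**Figure D3:**
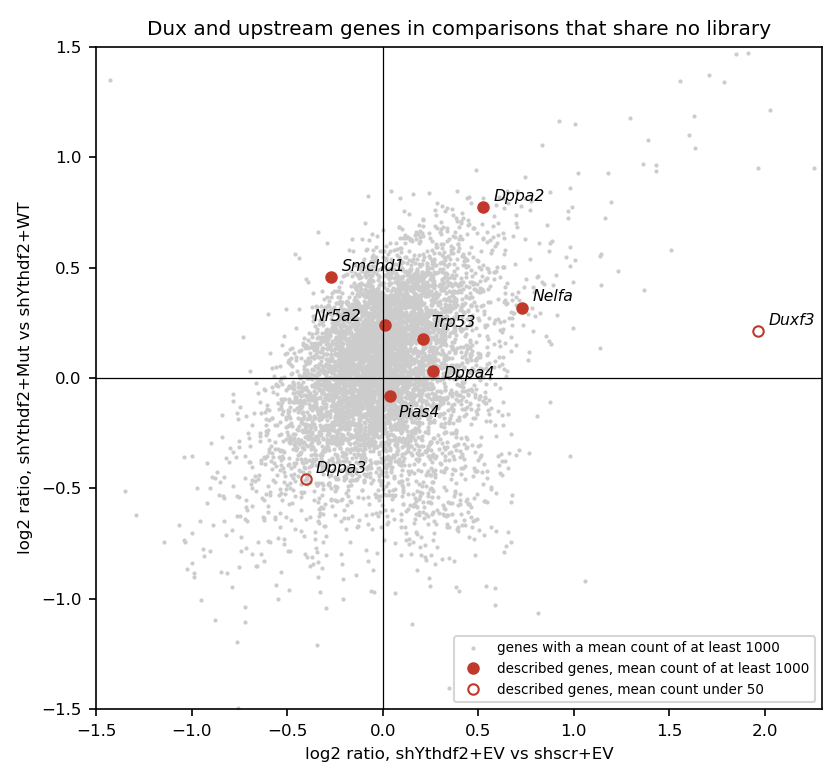
Log2 ratio of shYthdf2+EV to shscr+EV (horizontal axis) against that of shYthdf2+Mut to shYthdf2+WT (vertical axis), which share no library, for the 9 genes (red) and genes averaging 1000 reads or more (gray, a few of which lie beyond the axes). *Dppa2* (0.52 and 0.78) and *Nelfa* (0.73 and 0.32) lie in the upper right, *Smchd1* (-0.27 and 0.46) in the upper left, and *Duxf3* far to the right (1.97 and 0.21).

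The targets of DUX were described beside *Duxf3*. Of 27 listed targets, 25 reached the mean count of 10, *Tdpoz1* (0, 20, 0 and 7 reads) and *AA792892* did not, and some that did so may have passed through the libraries where they were high. With the knockdown 23 of the 25 were at least 2-fold higher, where 7.1% of all genes were, with a median log2 ratio of 1.70, and 21 were at least 2-fold lower in shYthdf2+WT than in shYthdf2+EV, where 5.61% of all genes were (median -1.48). *Zscan4c*, an early DUX target that is also reported to feed back on *Dux*, had 834, 3279, 1023 and 2503 reads. Its ratio was 1.79 (1.63 to 1.95) with the knockdown, -0.21 (-0.32 to -0.11) for shYthdf2+Mut against shYthdf2+EV and 1.34 (1.19 to 1.49) between the constructs.

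In shYthdf2+Mut the targets had a median of -0.20 against shYthdf2+EV and of 1.26 against shYthdf2+WT, with 16 of 25 at least 2-fold higher than in shYthdf2+WT, where 5.39% of all genes were. *Duxf3* was at -1.16 (-2.47 to -0.01) and 0.21 (-1.33 to 1.79) in these comparisons, and both intervals hold the median of the targets. Its value between the constructs was 0.49 after the GC and length correction. *Gm4340*, whose promoter held the stricter letters, was the only one of the 25 with a ratio above 0 in shYthdf2+WT against shYthdf2+EV. It had 1856, 2771, 2733 and 3940 reads, and that ratio was 0.11. The *Zscan4* and *Usp17l* members of the list are near copies whose reads can be lost or split, and they are not independent of each other.

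**Figure D4:**
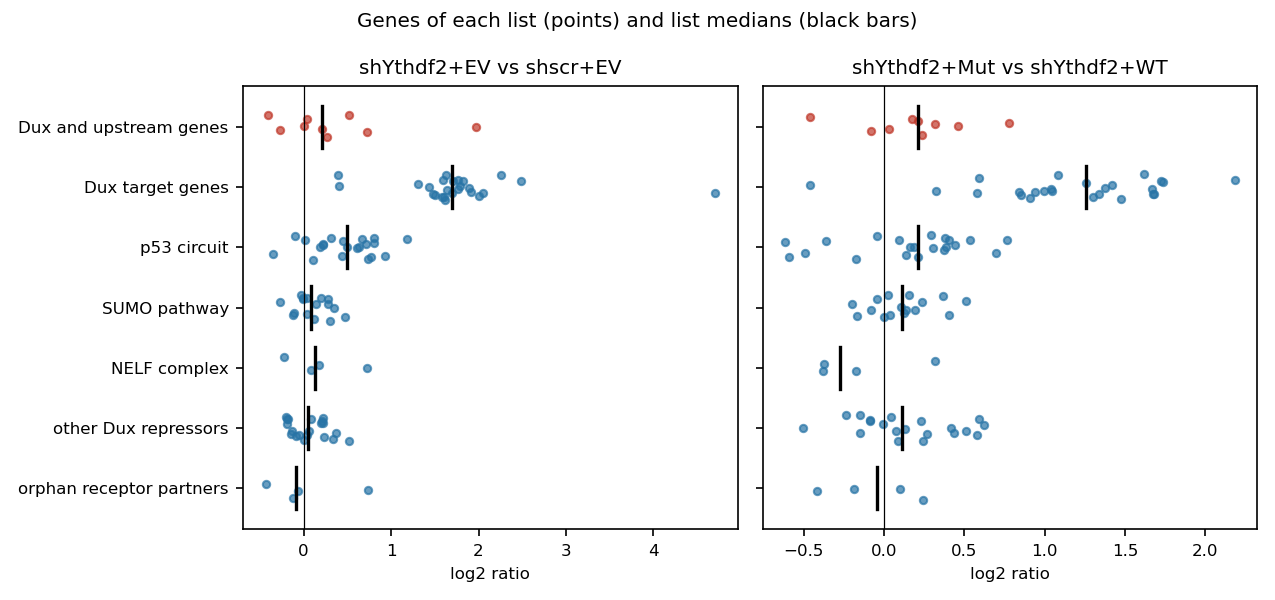
Log2 ratio (horizontal axis) of each gene compared, by list, for shYthdf2+EV against shscr+EV and shYthdf2+Mut against shYthdf2+WT, with list medians as black bars. The DUX targets lie to the right in both panels (medians 1.70 and 1.26), the p53 circuit at 0.49 and 0.21, and the 9 genes themselves at 0.21 in each.

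Per kilobase of exon, the 9 genes spanned a wide range of levels. In shscr+EV the order, in CPM per kilobase, was *Trp53* (163.7), *Dppa2* (104.4), *Dppa4* (93.97), *Nelfa* (44.2), *Pias4* (26.3), *Smchd1* (21.4), *Nr5a2* (12.7), *Dppa3* (2.17) and *Duxf3* (0.0602). Such values depend on the exon models, and that of *Duxf3* includes 5254 bases where its mm10 transcript has 2025. *Dppa2* and *Dppa4* traded places in shYthdf2+WT, at 89.7 and 99.8, and no other neighbours in the order did so in any library. *Trp53*, *Dppa2* and *Dppa4* were above 96.6% or more of the genes compared in every library, whereas *Duxf3* was above 3.38% to 14.1% of them.

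**Figure D5:**
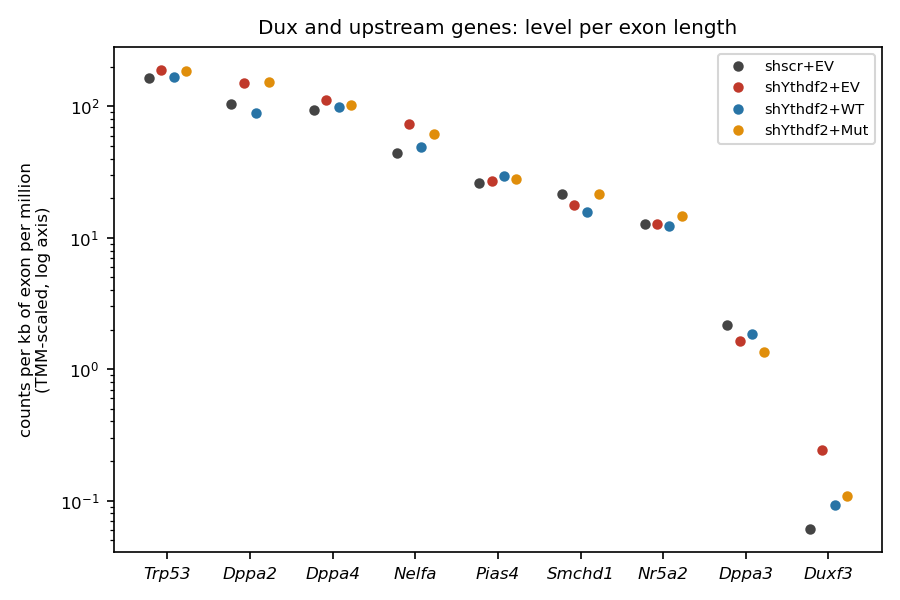
Level of the 9 genes in TMM-scaled CPM per kilobase of exon (log axis), 1 point per library. *Trp53* is at the top, at 163.7 to 189.5, and *Duxf3* at the bottom, at 0.0602 to 0.244.

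The transcripts also differed in GGACT, a common form of the letters at which m6A is placed. It was counted in the longest GENCODE transcript of each symbol, with protein-coding transcripts taken first. It occurred 11 times in *Nr5a2*, 8 in *Smchd1*, 5 in *Pias4*, 2 in *Nelfa*, and once each in *Dppa2* and *Trp53*, and not in *Duxf3*, *Dppa4* or *Dppa3*. Per kilobase these were 2.32 in *Nr5a2*, 1.94 in *Pias4*, 1.13 in *Smchd1* and 0.78 in *Nelfa*, where the median of the compared genes with such a transcript was 1.02. This is a count of letters in 9 transcripts and no measurement of m6A.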

How the data were processed

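The data were paired-end poly(A)+ RNA-seq libraries of E14 ESCs, 1 per group, grouped by their titles. The methods of the study describe replicates, which the labels do not give here. The authors deposited read counts per gene. Per the file headers they used featureCounts 2.0.3 on the UCSC mm39 RefSeq exons, counting reads and not pairs, without strand, and without reads of several places or genes, so antisense, overlapping and copied genes are uncertain. Per the labels, fastp 0.19.4, HISAT2 2.2.1 and DESeq2 1.40.2 were used and the build was mm10, at odds with that annotation. mm39 coordinates are those of the deposited table.

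Library sizes were scaled by TMM (edgeR 4.0.16, R 4.3.3, Python 3.11.15) over genes averaging 10 reads or more. A prior count of 0.5, in proportion to library size, entered the log2 ratios, so those of *Duxf3* are slightly pulled to 0. Depth was 31533129 to 35742335 reads. The floor was 3 reads, and the 95% intervals and floors cover counting error only, since amplified reads are not independent molecules. No p-value was computed, and differences are between libraries. Genes were counted past 1.2-fold and 2-fold. The GC and length correction removed the median ratio of genes in the same of 10 GC bins and 5 length bins, with GC content from GENCODE vM21 transcripts. The scripts were tested on simulated data. The genes and lists were chosen with earlier results of these data known. Named genes were the 9, *Ythdf2*, the 5 most like *Duxf3* and, of each list, those past 2-fold with an interval that excludes 0 or else its extremes, of which a selection is printed. *Gm4981*, *Trp53-ps*, *Nelfe*, *Tdpoz1* and the genes set aside for low counts were named outside that rule.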

Additional observations from a re-analysis of the deposited data

Results flagged for a closer look

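*Smchd1* was the only one of the 9 genes that went opposite ways with the constructs, against the same shYthdf2+EV library, with both counting intervals on one side of 0. Its log2 ratio was -0.19 in shYthdf2+WT and 0.27 in shYthdf2+Mut. After the GC and length correction these were -0.0070 and 0.16. With 1 library per group the difference was not tested.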

How the results depend on the processing

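No group had a replicate, so no library could be left out in turn. No paired analysis was possible because each group had 1 library. Of 636 values under alternatives, 582 stayed within the bounds set for each kind of value, 52 moved and 2 reversed. All 36 ratios of the 9 genes stayed within their counting intervals under DESeq2 1.42.0 size factors, total counts with and without mitochondrial genes, upper-quartile factors and a prior count of 5, and 16 of 36 left them under the GC and length correction. With the median ratio of each chromosome removed, 2 of 36 left them. The knockdown ratio of *Duxf3* was 1.95 to 2.01 under the scalings and 1.62 with a prior count of 5.

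The number of the 9 genes at least 1.2-fold lower with the knockdown was 2 and became 1 with total counts, with or without mitochondrial genes, with the GC and length correction, and where the interval had to exclude 0. At 1.5-fold it was 0. The number higher went from 4 to 2 at 1.5-fold, and to 3, without *Dppa4*, with upper-quartile factors, the GC and length correction and the chromosome medians removed. For shYthdf2+Mut against shYthdf2+EV, the number lower went from 2 to 1 with a prior count of 5, the GC and length correction, 1.5-fold and an interval that excludes 0, and the number higher from 1 to 0 at 1.5-fold. With the GC and length correction that 1 gene was *Pias4* and not *Smchd1*. Between the constructs, the number higher went from 3 to 6 with the GC and length correction and to 1 at 1.5-fold, and the number lower from 1 to 0 at 1.5-fold and where the interval had to exclude 0. The median of the DUX targets between the constructs moved from 1.26 to 1.36 when the median ratio of each chromosome was removed, an alternative added after the data were seen, as was the background of genes averaging 1000 reads or more. The median of the other *Dux* activators with the knockdown turned from 0.78, over 2 genes, to -0.15 with a minimum mean count of 1, which adds *Obox3*. The median of the NELF subunits between the constructs turned from -0.28 to 0.079 with the GC and length correction. Apart from these additions, the cause was not tested. Depth limits *Duxf3* and *Dppa3*, with mean counts of 22.5 and 47.3.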

Other observations

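Other genes of the *Obox* family, homeobox genes of the early embryo, were looked at after their values were seen. *Obox6* had 52 reads in shscr+EV, 18 in shYthdf2+EV, 48 in shYthdf2+WT and 38 in shYthdf2+Mut, a knockdown log2 ratio of -1.69 (95% counting interval -3.0 to -0.58), opposite to that of *Duxf3*. The pseudogene *Obox4-ps33* had 34, 126, 28 and 82 reads, with 1.69 (0.91 to 2.57) for the knockdown and 1.58 (0.69 to 2.59) for shYthdf2+Mut against shYthdf2+WT. The activators *Obox3* and *Obox5* had at most 8 reads and 0 reads in a library.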
